A study of Caenorhabditis elegans with 8 samples.

Results

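Respiratory complex I is described here through the RNA of 37 of its genes in whole adult Caenorhabditis elegans, of 20871 genes in the deposited table. The members were picked by gene identifier: 30 nuclear genes for subunits of NADH dehydrogenase and 7 genes of the mitochondrial genome (mtDNA), ND1 to ND6 and ND4L. Measured levels were not part of the rule. All 37 identifiers were found in the table and in the Ensembl annotation of the WBcel235 build.

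Complex I takes electrons from NADH, passes them through a flavin and a chain of iron-sulfur clusters to ubiquinone, and pumps protons across the inner mitochondrial membrane. Its peripheral arm holds the NADH-oxidizing N module and the quinone-reducing Q module, and all core subunits of that arm are nuclear genes. The core of the proton-pumping membrane arm is made inside mitochondria from the ND mRNAs, surrounded by nuclear-encoded accessory subunits, so the enzyme needs products of both genomes.

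The worms of the 4 mtch-1(RNAi) samples ate HT115 Escherichia coli making double-stranded RNA against mtch-1, a gene for a mitochondrial carrier homolog of the outer membrane. The worms of the 4 EV samples ate the same bacteria with the empty L4440 vector. Both groups were grown at 20 °C from egg-lay to day 3 of adulthood on plates with ampicillin and 1 mM IPTG, and about 200 adults were pooled per collection. For both groups, expression in the bacteria was switched on at 37 °C over 3 h by 5 mM IPTG. The sources used here do not give the worm strain or genotype, feeding exposes the whole animal, and a whole-worm sample mixes somatic tissues, germline and embryos. Fewer cells of a type and less RNA per cell cannot be told apart in such samples.

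Total gene counts were 20626184 to 22748868 in the mtch-1(RNAi) samples and 18710833 to 23608608 in the EV samples. Every tested member had at least 376 counts in each sample. Levels of 1 gene across samples are given as CPM, that is, counts relative to the library size after TMM scaling (trimmed mean of M values). Levels are compared between genes only as FPKM, the authors' fragment counts scaled by gene length and by a library size. That size was not the total count above, and it exceeded the total by more in mtch-1(RNAi) than in EV samples. It was 25029169 against a total of 22748868 in mtch-1(RNAi) replicate 1, and 23619859 against 23608608 in EV replicate 4, the largest and smallest gaps. mtch-1 itself stood at 50.5, 58, 34.3 and 46.1 CPM in mtch-1(RNAi) replicates 1 to 4, against 264, 287, 275 and 291 CPM in EV replicates 1 to 4. The fitted difference was -2.56 on the log2 scale (SE 0.12, adjusted p = 8.62e-08 in edgeR). The knocked-down gene was therefore low in every sample labelled as knockdown, and reads from the ingested RNA, if any, are part of that level.

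The balance between the genomes differed between the groups. The summed FPKM of the 7 mtDNA members was 842.6, 833.3, 1121 and 883.4 in mtch-1(RNAi) replicates 1 to 4, against 1406, 1608, 1780 and 1694 in EV replicates 1 to 4. The summed FPKM of the 30 nuclear members was 4305, 4781, 4550 and 4667 in the mtch-1(RNAi) samples, against 4747, 4992, 4873 and 4845 in the EV samples. All 4 mtDNA sums were lower in mtch-1(RNAi) than any in EV, whereas the nuclear sums overlapped on the FPKM scale. Between samples of the same replicate number, the nuclear sum was lower in mtch-1(RNAi) in all 4 pairs. These log2 differences were -0.14, -0.06, -0.1 and -0.05. The mtch-1(RNAi) mean was 0.567 of the EV mean for mtDNA members and 0.941 of it for nuclear members. On the CPM scale, with its other scaling of libraries, the nuclear sums were 3928 to 4249 in mtch-1(RNAi) and 4286 to 4463 in EV, which did not overlap.

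Within each sample, the mtDNA sum divided by the nuclear sum was 0.196, 0.174, 0.246 and 0.189 in mtch-1(RNAi), against 0.296, 0.322, 0.365 and 0.350 in EV. This ratio needs no scaling between libraries, because both sums come from 1 sample. It averaged 0.201 ± 0.0312 in mtch-1(RNAi) and 0.333 ± 0.0306 in EV (SD, n = 4 each), with no overlap. The change in the mean log2 ratio was -0.73, and it lay between -0.67 and -0.84 with any 1 sample left out. The same-numbered pairs of samples differed by -0.60, -0.89, -0.57 and -0.89 on the log2 scale. No p-value is given for a sum or ratio over members, since the members were chosen with results of these data known.

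**Figure D1:**
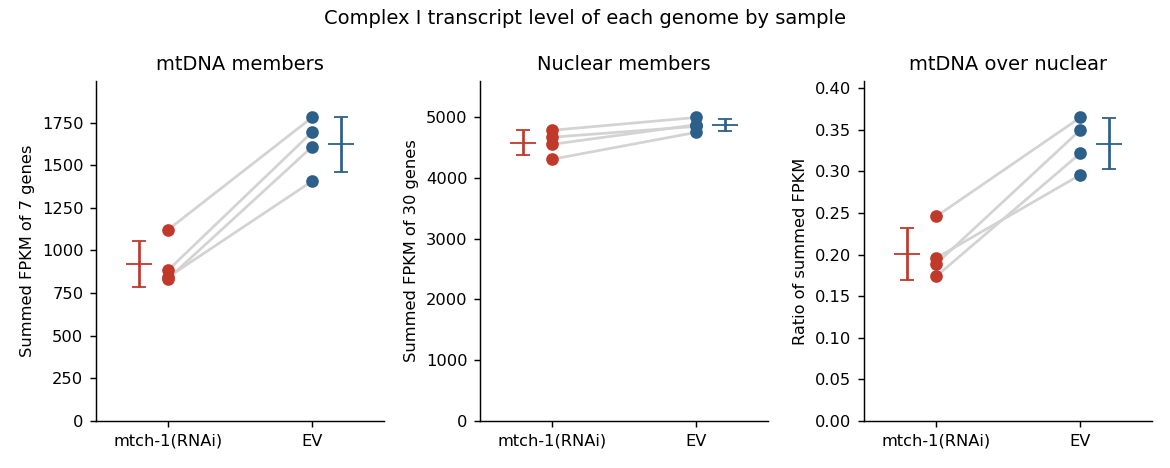
Summed FPKM of the 7 mtDNA members (left), of the 30 nuclear members (middle) and their ratio (right), 1 point per sample, with grey lines joining samples of the same replicate number and bars showing mean ± SD (n = 4). The mtDNA sums lie between 833.3 and 1121 in mtch-1(RNAi) and between 1406 and 1780 in EV, while the nuclear sums of the groups overlap.

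Expressed per gene, an mtDNA member averaged 119 to 160 FPKM and a nuclear member 144 to 159 FPKM in the mtch-1(RNAi) samples. In EV the averages were 201 to 254 FPKM for mtDNA and 158 to 166 FPKM for nuclear members. The mtDNA mean was above the nuclear mean in all 4 EV samples, by 1.27 to 1.57 times. In mtch-1(RNAi) it was below the nuclear mean in replicates 1, 2 and 4 (0.839, 0.747 and 0.811 times) and close to it in replicate 3, at 1.06 times. The mtDNA mean covers 7 genes and is lowered by ND4L, which averaged only 1.18 FPKM in mtch-1(RNAi). The median over the 6 tested mtDNA members was 166 FPKM in mtch-1(RNAi), against 160 FPKM over the nuclear members. In EV these medians were 306 and 164 FPKM. Which genome stood higher in mtch-1(RNAi) thus depended on the measure. Shares of each sample's total counts amount to scaling by total counts, without TMM. By that measure, mtDNA members took 0.0908% to 0.119% in mtch-1(RNAi) and 0.139% to 0.178% in EV. Nuclear members took 0.41% to 0.431% in mtch-1(RNAi) and 0.418% to 0.438% in EV, overlapping ranges. The mtch-1(RNAi) mean of the nuclear share was 0.989 of the EV mean, against 0.941 for summed FPKM.

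All 6 tested complex I mRNAs of the mtDNA fell in mtch-1(RNAi), and none rose. Over the whole table, 13% of 13252 tested genes were called lower and 10% higher by edgeR at an adjusted p under 0.05. The median log2 fold change of these 6 was -0.84, against 0.01 over all genes tested. Each of the 6 was called lower under every alternative test, scaling, filter and left-out sample that was run. The groups did not overlap in CPM for 5 of them, while 14.2% of all tested genes were lower and 11.7% higher without overlap.

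ND1 (mtDNA, positions 1763 to 2635 on WBcel235) encodes the membrane subunit next to the quinone site. It had 220, 241, 293 and 224 CPM in mtch-1(RNAi) replicates 1 to 4, against 437, 450, 497 and 442 CPM in EV replicates 1 to 4. The highest mtch-1(RNAi) sample lay well under the lowest EV sample. The log2 fold change of ND1 was -0.90 (SE 0.08, adjusted p = 2.47e-05).

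ND2, ND4 and ND5 encode the antiporter-like subunits, each thought to hold a proton channel. ND2 (3389 to 4269) had 32.9, 18.1, 30.4 and 21.9 CPM in mtch-1(RNAi), against 32.2, 46.8, 76.8 and 78.8 CPM in EV. It was the only tested mtDNA member whose groups overlapped: mtch-1(RNAi) replicate 1 stood slightly above EV replicate 1, and EV replicates 3 and 4 stood far above EV replicate 1. Its log2 fold change of -1.18 carried the largest error of the 6 (SE 0.26, adjusted p = 0.00612), and ranged from -1.0 to -1.38 over the alternatives.

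ND4 (6506 to 7808) had 184, 182, 230 and 199 CPM in mtch-1(RNAi), against 291, 345, 382 and 353 CPM in EV. Its groups were clearly apart (log2 fold change -0.79, SE 0.09, adjusted p = 9.54e-05). ND5 (11691 to 13272), the ND gene with most counts, had 371, 386, 497 and 407 CPM in mtch-1(RNAi), against 531, 597, 649 and 611 CPM in EV. ND5 had the smallest fall of the 6, and its groups were still apart (-0.52, SE 0.09, adjusted p = 0.00125).

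ND3 and ND6 encode small membrane subunits. ND3 (11356 to 11691) had 61.7, 48.9, 87.9 and 63.8 CPM in mtch-1(RNAi), against 105, 131, 138 and 151 CPM in EV. The groups did not overlap (log2 fold change -1.0, SE 0.15, adjusted p = 0.000632). ND6 (113 to 549) had 15.8, 19.4, 22.7 and 21.5 CPM in mtch-1(RNAi), against 29.0, 36.1, 38.2 and 29.1 CPM in EV. Here too the groups did not overlap (-0.74, SE 0.12, adjusted p = 0.00141).

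ND4L (549 to 783), the shortest member at 235 bases, was barely detected and did not pass the expression filter. It had 11, 0, 9 and 6 counts in mtch-1(RNAi) and 8, 4, 9 and 9 counts in EV, with overlapping groups. The sample with 0 counts allows a level of up to 0.133 CPM, taking 3 counts as the limit, which covers counting error only. With no expression filter its log2 fold change was -0.35 (SE 0.61, adjusted p = 0.783), so a difference the size of those of the other ND genes was not detectable at this depth. ND4L averaged 1.18 FPKM in mtch-1(RNAi) and 1.52 FPKM in EV, although it sits directly beside ND6, which averaged 43.3 FPKM in mtch-1(RNAi) and 72.4 FPKM in EV.

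**Figure D2:**
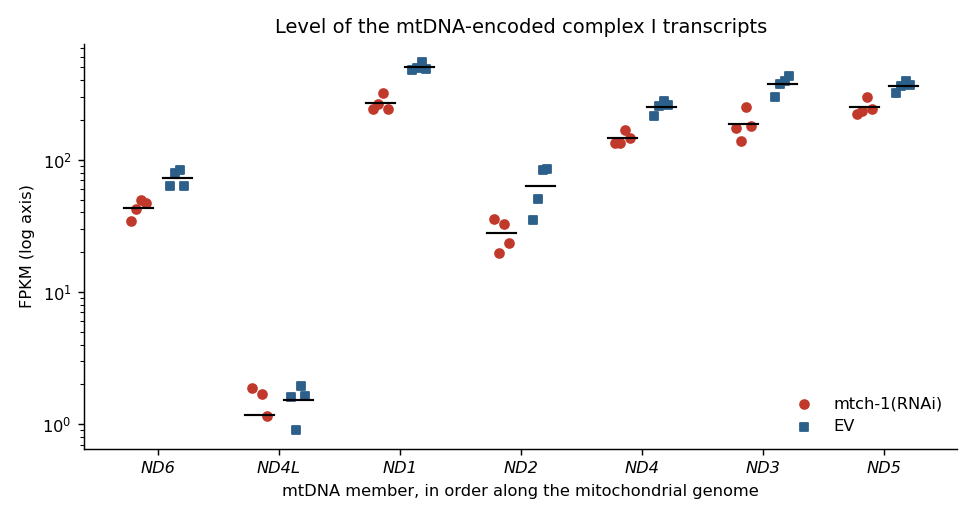
FPKM of each mtDNA-encoded complex I transcript, in its order along the mitochondrial genome, on a log axis, with 1 point per sample (circles mtch-1(RNAi), squares EV) and a bar at the mean of 4. The mtch-1(RNAi) points lie under the EV points for ND6, ND1, ND4, ND3 and ND5, and overlap them for ND2 and ND4L, whose mtch-1(RNAi) replicate 2 is at 0 and cannot be drawn.

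Levels differed widely among the mtDNA members, and the means of ND3 and ND5 swapped places in their order. In EV the mean FPKM was 499 ± 30.9 for ND1, 373 ± 56.1 for ND3, 361 ± 30.4 for ND5, 251 ± 28.2 for ND4, 72.4 ± 10.5 for ND6 and 63.6 ± 25 for ND2 (SD, n = 4). In mtch-1(RNAi) it was 267 ± 37.1 for ND1, 250 ± 33.9 for ND5, 186 ± 46.0 for ND3, 145 ± 16.3 for ND4, 43.3 ± 6.61 for ND6 and 27.9 ± 7.48 for ND2. ND3 and ND5 in EV, and ND1 and ND5 in mtch-1(RNAi), were closer to each other than their SDs, as were ND6 and ND2 in EV. ND5 made up 26.4% to 28.1% of the summed ND FPKM in mtch-1(RNAi) and 21.8% to 22.7% in EV, without overlap, while the shares of ND1, ND2, ND3, ND4 and ND6 overlapped.

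ND3 and ND5 lie next to each other and share 1 base in the annotation, and their ratio did not overlap between the groups. ND3 FPKM divided by ND5 FPKM was 0.783, 0.596, 0.833 and 0.739 in mtch-1(RNAi), against 0.931, 1.03, 1.00 and 1.17 in EV. The ratios of ND1 to ND6 and of ND2 to ND4, also computed, overlapped between the groups. None of these ratios was planned, and that of ND3 to ND5 uses the same ND5 values as the ND5 share above. All 7 mtDNA members are annotated on the plus strand. Of these, 5 share 1 or 2 bases with an adjacent counted gene, and how reads across such a boundary were counted is not stated.

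Replicates varied more for mtDNA members than for nuclear ones at the median. The coefficient of variation of CPM within a group was 11.3% to 27% in mtch-1(RNAi) and 6.05% to 39.1% in EV over the 6 tested mtDNA members. Its median was 14.5% in mtch-1(RNAi) and 12.7% in EV over these mtDNA members, against 5.22% and 3.76% over the nuclear members. The highest nuclear value was 10.6% in mtch-1(RNAi) and 7.48% in EV, so that the ranges of the 2 genomes overlapped in EV. Among the mtch-1(RNAi) samples, replicate 3 had the highest level of ND1, ND3, ND4, ND5 and ND6. Its mtDNA members lay at a median of -0.58 (log2) relative to the EV mean, against -0.97, -0.92 and -0.91 in replicates 1, 2 and 4. Replicate 3 also had the least mtch-1.

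Nuclear members were all well expressed. The highest mean FPKM in EV was 5.74 times the lowest, against 7.85 times among the 6 tested mtDNA members. Mean FPKM ran from 39.7 to 261 in mtch-1(RNAi), with a median of 160.0, and from 45.8 to 263 in EV, with a median of 164. The lowest was gas-1 (K09A9.5, chromosome X), a gene of the Q module, at 39.7 ± 1.45 FPKM in mtch-1(RNAi) and 45.8 ± 3.5 FPKM in EV (SD, n = 4). The highest was C16A3.5 (chromosome III), a gene for the NDUFB9-type accessory subunit, at 261 ± 19.8 FPKM in mtch-1(RNAi) and 263 ± 11.7 FPKM in EV. C16A3.5 had overlapping groups and a log2 fold change of -0.01 (SE 0.06, adjusted p = 0.953), with the sign changing under some settings. The members are spread over all 6 nuclear chromosomes, with 10 of 30 on chromosome I and 1 on X.

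**Figure D3:**
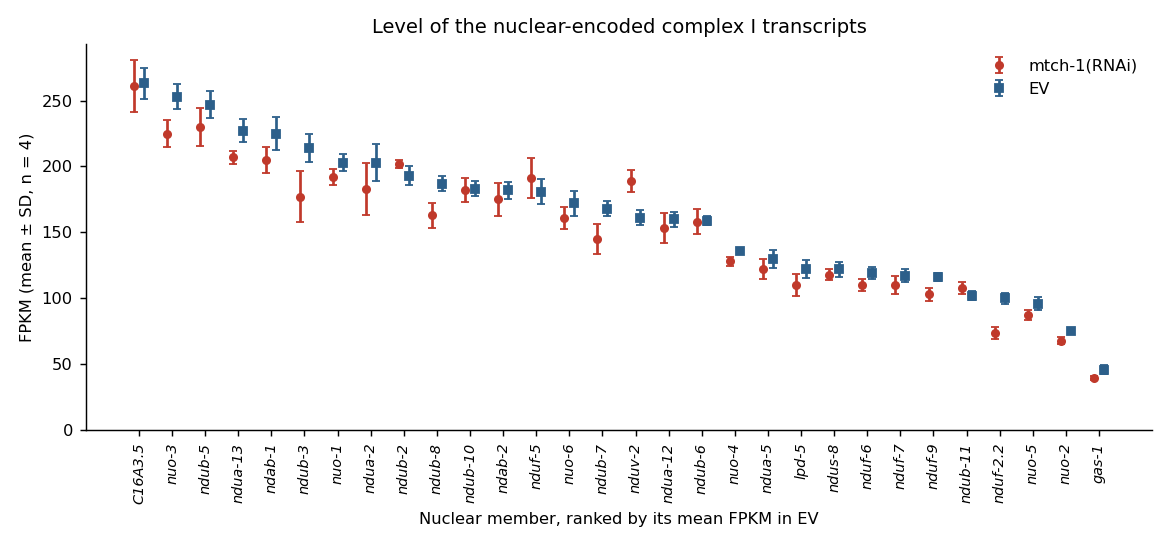
Mean FPKM ± SD (n = 4) of the 30 nuclear members, ranked by their mean in EV, with mtch-1(RNAi) as circles left of EV as squares. Levels run from C16A3.5 at 263 FPKM to gas-1 at 45.8 FPKM in EV, and the groups lie close together for most genes.

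Of the 30 nuclear members, 9 fell, 1 rose and 20 were not called, against 13% of all tested genes called lower and 10% called higher. The median log2 fold change was -0.10, and 26 of 30 estimates were below 0. The changes were small: only nduf-2.2 and ndub-3 had an estimate beyond 0.25 in size. In CPM, 11 members were lower without overlap and 1 was higher without overlap (14.2% and 11.7% over all tested genes). The authors' deposited table has 10 nuclear and 6 mtDNA members at an adjusted p under 0.05, and these are the same genes.

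The nuclear count depended on how libraries were scaled and on single samples. Scaling by total counts instead of TMM, an alternative added after seeing the data, left 1 nuclear member lower and 3 higher, with 7.53% of all genes lower and 15.4% higher. That scaling put the median of all tested genes at 0.09 and that of the nuclear members at -0.02. The mtDNA members had a median of -0.77 under it, and all 6 were still called lower. The count of nuclear members called lower was 5 with mtch-1(RNAi) replicate 1, mtch-1(RNAi) replicate 4 or EV replicate 4 left out. It was 4 with EV replicate 2 left out. In each of these fits, fewer genes of the whole table were called lower too, against 1728 with all samples. How much of the drop is particular to the nuclear members was not tested. With the replicate block, which pairs same-numbered samples, 11 fell and 1 rose (17.1% and 15% over all genes), the additional ones being lpd-5 (adjusted p = 0.0218) and ndab-1 (0.0317).

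**Figure D4:**
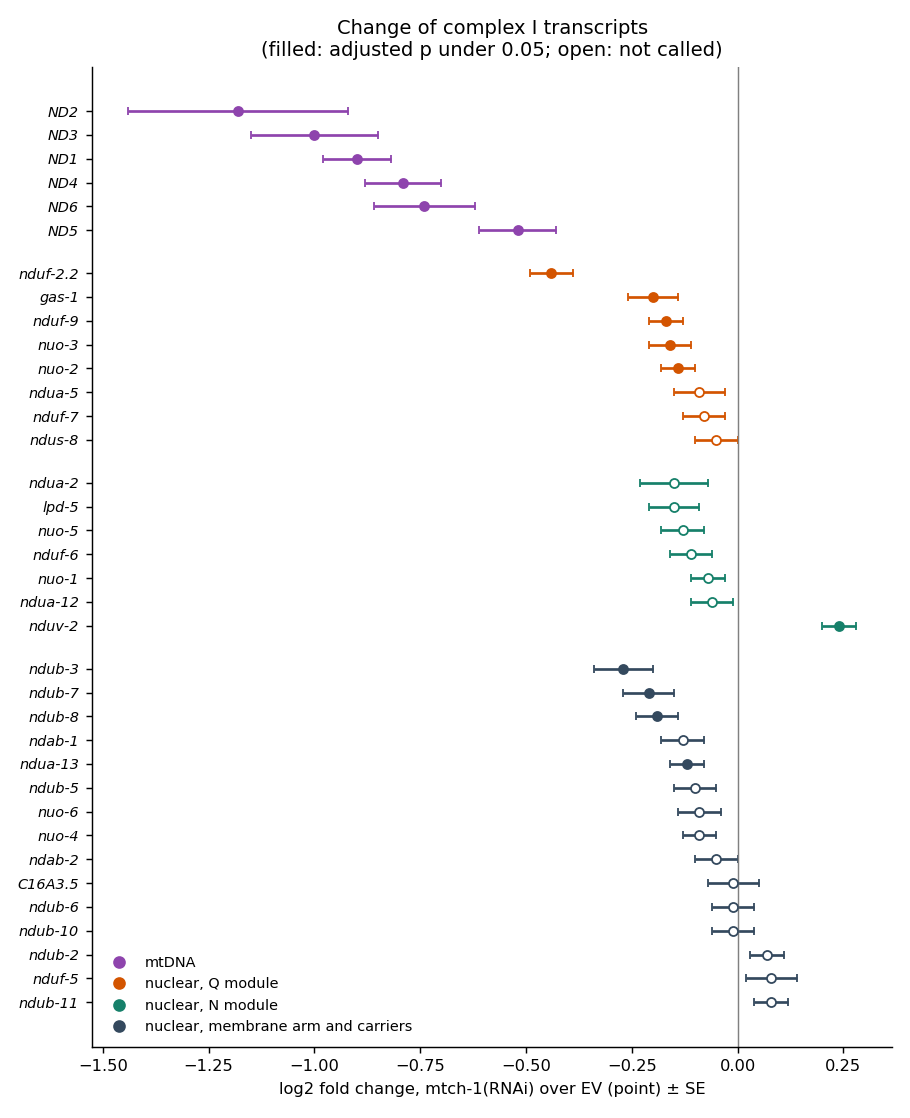
Log2 fold change ± SE of the 6 tested mtDNA members and the 30 nuclear members by module, mtch-1(RNAi) over EV, filled where the edgeR adjusted p is under 0.05. The mtDNA members lie between -1.18 and -0.52, and the nuclear members between -0.44 and 0.24.

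In the Q module, 5 of 8 members fell and none rose, against 13% of all tested genes lower and 10% higher, with a median log2 fold change of -0.15. The clearest was nduf-2.2 (T26A5.3, chromosome III, 6465222 to 6467206, plus strand). It had 111, 121, 128 and 119 CPM in mtch-1(RNAi) replicates 1 to 4, against 156, 156, 169 and 167 CPM in EV replicates 1 to 4. Every mtch-1(RNAi) sample was below every EV sample (log2 fold change -0.44, SE 0.05, adjusted p = 0.000107), and the call held under all settings run, with estimates from -0.37 to -0.47. nduf-2.2 was the nuclear member called lower under total-count scaling.

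gas-1, whose mutants are known for sensitivity to volatile anaesthetics and oxidative stress, had 66.2, 68.3, 70.4 and 72.1 CPM in mtch-1(RNAi), against 74.0, 77.2, 87.9 and 79.7 CPM in EV. The groups were close but did not overlap (-0.20, SE 0.06, adjusted p = 0.0231). Leaving out mtch-1(RNAi) replicate 1 (adjusted p = 0.0622) or 2 (0.0541), or EV replicate 3 (0.0574) or 4 (0.0581), ended the gas-1 call, as did total-count scaling (0.145). Any reads that align to both gas-1 and nduf-2.2 make the level of each less certain.

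The other Q module genes that fell were nduf-9 (Y53G8AL.2, NDUFA9 type), nuo-3 (Y57G11C.12, NDUFA6 type) and nuo-2 (T10E9.7, the NDUFS3-type core subunit). nduf-9 had 151, 161, 165 and 152 CPM in mtch-1(RNAi), against 172, 174, 180 and 181 CPM in EV (-0.17, SE 0.04, adjusted p = 0.0126). The groups were apart, and leaving out mtch-1(RNAi) replicate 4 ended the call (adjusted p = 0.0508), as did total-count scaling (0.128). nuo-3 (-0.16, adjusted p = 0.0228) lost its call without mtch-1(RNAi) replicate 1 (0.0678), 3 (0.0514) or 4 (0.0574), without EV replicate 2 (0.0776) or 4 (0.0746), and under total-count scaling (0.14). nuo-2 (-0.14, adjusted p = 0.0222) lost it without mtch-1(RNAi) replicate 1 (0.0696), 2 (0.0524) or 4 (0.059), and without EV replicate 1 (0.0577), 2 (0.0566) or 4 (0.069). The nuo-2 call was also lost with no count filter (0.0617) and under total-count scaling (0.217). The iron-sulfur subunit genes nduf-7 (-0.08, NDUFS7 type) and ndus-8 (-0.05, NDUFS8 type) and the accessory gene ndua-5 (-0.09, NDUFA5 type) were not called.

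In the N module, none of 7 members was called lower and 1 rose, against 13% lower and 10% higher over all tested genes. These counts are near the background. The median log2 fold change was -0.11, and 6 of the 7 estimates were below 0. The riser was nduv-2 (F53F4.10, chromosome V, 13624625 to 13625567, minus strand), for the NDUFV2-type subunit that carries an iron-sulfur cluster beside the flavin. It had 169, 180, 163 and 173 CPM in mtch-1(RNAi), against 140, 144, 148 and 151 CPM in EV. Every mtch-1(RNAi) sample was above every EV sample (log2 fold change 0.24, SE 0.04, adjusted p = 0.00238), and the call held under all settings run, with estimates from 0.21 to 0.31.

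The genes of its partners in that module were not called. nuo-1 (C09H10.3), for the flavin-binding NDUFV1-type subunit, averaged 323 ± 9.47 CPM in mtch-1(RNAi) and 340.0 ± 10.9 CPM in EV (-0.07, adjusted p = 0.231). nuo-5, for the NDUFS1-type subunit that carries further iron-sulfur clusters, averaged 272 ± 11.1 CPM in mtch-1(RNAi) and 297 ± 14.6 CPM in EV (-0.13, adjusted p = 0.0729). Leaving out mtch-1(RNAi) replicate 3 brought nuo-5 past the test (adjusted p = 0.0428). lpd-5 (-0.15, NDUFS4 type) was not called, but was called with mtch-1(RNAi) replicate 2 left out (0.0262), as with the block. nduf-6 (-0.11, NDUFS6 type), ndua-12 (-0.06) and ndua-2 (-0.15) were not called either. Whether the modules differ from each other was not tested.

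Among the 15 nuclear genes for membrane-arm and carrier subunits, 4 fell and none rose, against 13% lower and 10% higher over all tested genes, with a median of -0.09. ndub-8 (Y51H1A.3, NDUFB8 type) had 131, 138, 136 and 122 CPM in mtch-1(RNAi), against 154, 148, 156 and 146 CPM in EV (-0.19, SE 0.05, adjusted p = 0.0102). Its groups did not overlap, and it lost its call only under total-count scaling (0.11) among the settings run. ndub-7 (D2030.4, NDUFB7 type) had 70.6, 83.8, 74.9 and 79.0 CPM in mtch-1(RNAi), against 86.8, 93.6, 87.7 and 88.2 CPM in EV (-0.21, SE 0.06, adjusted p = 0.017). The gap between its groups was narrow, and the call was lost without EV replicate 2 (0.0626) and under total-count scaling (0.0796).

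ndub-3 (C18E9.4, NDUFB3 type) had 67.2, 84.5, 84.7 and 83.0 CPM in mtch-1(RNAi), against 90.7, 102, 98.0 and 93.9 CPM in EV. mtch-1(RNAi) replicate 1 stood apart from the other 3 samples of its group, and the groups did not overlap. Its log2 fold change of -0.27 was the second most negative of the nuclear members (SE 0.07, adjusted p = 0.0175), and the call was lost without EV replicate 2 (0.0613) and under total-count scaling (0.0577). ndua-13 (C34B2.8, NDUFA13 type, known in mammals as GRIM-19) was called at -0.12 (adjusted p = 0.0433). Its call was lost without any one of mtch-1(RNAi) replicates 1 to 4 or EV replicates 2 to 4 (0.0604 to 0.133), in limma-voom (0.051), under both other count filters (0.0954 and 0.115) and under total-count scaling (0.387).

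The remaining 11 membrane-arm and carrier genes had estimates from -0.13 to 0.08. The 3 above 0 were nduf-5 (0.08), ndub-11 (0.08) and ndub-2 (0.07), and under total-count scaling ndub-11 (0.16, adjusted p = 0.0299) and ndub-2 (0.14, adjusted p = 0.0345) were called higher. ndab-1 and ndab-2 encode acyl carrier proteins, which also serve mitochondrial fatty acid synthesis. ndab-1 averaged 110 ± 5.00 CPM in mtch-1(RNAi) and 121 ± 6.36 CPM in EV (-0.13, adjusted p = 0.0701), and ndab-2 averaged 114 ± 8.24 CPM in mtch-1(RNAi) and 118 ± 4.09 CPM in EV (-0.05, adjusted p = 0.522).

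Many nuclear members sit close to another gene on the same strand, an arrangement typical of worm operons, in which several genes are transcribed as 1 precursor. Of 30 members, 18 (60.0%) had a same-strand protein-coding neighbour within 500 bases, against 31.4% of all nuclear protein-coding genes of the annotation. Of the 23 such neighbours, 21 were tested, 1 was called lower and 4 higher, with a median log2 fold change of 0.01, against 13% lower, 10% higher and a median of 0.01 over all tested genes. F53F4.11, which starts 100 bases downstream of nduv-2, rose (0.25, adjusted p = 0.00222), beside 0.24 for nduv-2. sdha-2, a complex II gene 237 bases downstream of ndua-13, fell (-0.40, adjusted p = 0.00029), beside -0.12 for ndua-13. coq-3, for ubiquinone synthesis, lies 94 bases downstream of nuo-3 and was not called (-0.23, adjusted p = 0.0995). C16A3.6, 100 bases upstream of C16A3.5, rose (0.65, adjusted p = 1.02e-05) while C16A3.5 was not called. The other risers were F59C6.12 beside ndub-10 (0.35, adjusted p = 0.0389) and F44G4.1 beside ndub-2 (0.16, adjusted p = 0.0394). F53F4.11, C16A3.6, F59C6.12 and F44G4.1 were named after their values were seen.

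Other genes of complex I and of electron transfer were counted in lists, to be read against 13% of all tested genes lower and 10% higher (17.1% and 15% with the replicate block, 7.53% and 15.4% under total-count scaling). Of 8 tested genes for further complex I subunits and assembly factors, 2 fell and none rose: M04B2.4 (-0.49, adjusted p = 0.00173), related to the assembly factor FOXRED1, and acdh-12 (-0.35, adjusted p = 0.0009), related to ACAD9. Y116A8C.30 (0.19), related to NDUFAF2, was called higher with the replicate block (adjusted p = 0.0329), under the stricter count filter (0.048), under total-count scaling (0.0258) and with mtch-1(RNAi) replicate 1 left out (0.0487), but not otherwise (0.0876 in the fit reported here). ecsit-1, also on the list, was not matched and is not used here. For ubiquinone synthesis, which supplies the electron acceptor of complex I, 4 of 8 genes rose and none fell. These were coq-8 (0.46, adjusted p = 9.77e-06), coq-4 (0.35, 0.00353), clk-1 (0.26, 0.0142) and coq-2 (0.23, 0.0307). The coq-2 call was lost with any of mtch-1(RNAi) replicates 1, 3 and 4 or EV replicates 2 and 4 left out (0.0566 to 0.0874), and coq-6 (0.21) was called higher with the block (0.023).

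In the other respiratory complexes, nuclear genes were called lower and none higher. The counts were 3 of 5 for complex II (median log2 fold change -0.33), 5 of 11 for complex III (-0.14), 4 of 7 for complex IV (-0.17) and 8 of 13 for complex V (-0.20), beside 9 of 30 and a median of -0.10 for complex I and 13% of all tested genes. With the replicate block, complex IV had 5 called lower, with cox-6A added (adjusted p = 0.00678), and complex V had 9, with atp-4 added (0.0415), against 17.1% of all genes. In complex II, sdha-2 (-0.40), sdha-1 (-0.34) and mev-1 (-0.33) fell. The members with the lowest adjusted p elsewhere were ucr-1 (-0.38) in complex III, cox-4 (-0.33) in complex IV and asb-1 (-0.52) in complex V. Under total-count scaling the counts called lower were 3 for complex II, 2 for complex III, 1 for complex IV and 7 for complex V, against 7.53% of all genes, with 1 complex II gene, sdhd-1, higher (adjusted p = 0.042). Without mtch-1(RNAi) replicate 4 or EV replicate 4 complex III had 3 called lower, and without mtch-1(RNAi) replicate 1 or EV replicate 2 complex IV had 2. In complex III, ucr-11 was called higher with mtch-1(RNAi) replicate 1 left out (adjusted p = 0.0424).

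The rest of the mtDNA gave context for the ND mRNAs. The other 5 mtDNA mRNAs also fell, against 13% of all tested genes called lower. Their median was -0.65, with a range from -0.96 (CYTB) to -0.52 (COX1). ND transcripts made up 17.9% to 20.5% of the summed FPKM of all 12 mtDNA mRNAs in mtch-1(RNAi) and 19.6% to 21.4% in EV, overlapping ranges. Both mtDNA rRNAs rose, MTCE.7 (1.26, adjusted p = 9.92e-07) and MTCE.33 (1.51, adjusted p = 1.21e-05), against 10% of all tested genes higher. The rRNA per 100 FPKM of ND mRNA was 25.1, 24.2, 16 and 25.9 FPKM in mtch-1(RNAi), against 5.48, 4.73, 5.31 and 4.47 FPKM in EV. The sources used here do not say how RNA was selected for the libraries, and the part of that step in levels of rRNA and of mtDNA mRNAs was not tested. Of 7 tested genes for mtDNA maintenance and expression, 2 rose, tsfm-1 (0.33, adjusted p = 0.000663) and tufm-2 (0.23, adjusted p = 0.00247), both translation elongation factors, against 10% of all tested genes higher. None fell, although polg-1 was called lower with EV replicate 2 left out (-0.19). The packaging factor gene hmg-5 (0.00, adjusted p = 0.961) was not called. The mitochondrial RNA polymerase gene rpom-1 was not called either (0.13, adjusted p = 0.0696), but was called higher under the stricter count filter (0.0218) and under total-count scaling (0.0158).

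Markers of tissues in the whole-worm samples were counted in the same way. Of 10 germline markers, 7 fell and none rose, with a median log2 fold change of -0.25, against 13% of all tested genes lower and 10% higher. Under total-count scaling 6 fell, against 7.53% of all genes. Their summed level was 9082 to 9953 CPM in mtch-1(RNAi) and 10931 to 11953 CPM in EV, without overlap, and cpg-1 (-0.52) and rme-2 (-0.34) were among those that fell. Their part in the complex I result was not tested. Of 7 body wall muscle markers 1 rose and none fell (791.1 to 1196 CPM in mtch-1(RNAi), 749.1 to 935.3 CPM in EV), with a median of 0.23. With the replicate block 6 rose, against 15% of all genes. Of 7 intestine markers 1 rose and none fell (743.5 to 893.2 CPM in mtch-1(RNAi), 843.1 to 1078 CPM in EV), with a median of -0.25. With the block 5 fell and 1 rose, against 17.1% and 15% of all genes. No pharynx muscle marker of 4 and no neuron marker of 7 was called (with the block 1 neuron marker, unc-13, rose). Further, 1 epidermis marker of 6 (dpy-7, 1.10) rose, and spe-41 (1.13), the sperm marker tested, rose. The other sperm markers in the table were at or near 0 in both groups. The part of these tissues was not tested either.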

How the data were processed

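RNA-seq of 8 samples was analysed from 1 deposited table. Tools named by the submitters' processing notes are DESeq2, HISAT2 (2.0.5) and featureCounts (1.5.0-p3), with the WBcel235 build; the sources used here do not state strandedness or settings. The deposited columns hold, per the file headers, a read count and an FPKM value per gene and sample, a signal equal to the count over 1 size factor per sample, log2 fold changes with p-values, and gene lengths in bases. 6 nuclear members overlap exons of another counted gene.

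Counts were tested with edgeR 4.0.16 (quasi-likelihood F test, TMM, default expression filter, group only) in R 4.3.3. A call is a Benjamini-Hochberg adjusted p under 0.05 over all genes tested. The SE is the log2 fold change over the square root of F. Alternatives used DESeq2 1.42.0, limma 3.58.1 (voom), other scalings and filters, a replicate block, and each sample left out. Scripts were tested on simulated data with 200 changed genes. Groups and numbers came from the titles, and no column of per-sample values was left without a sample. Same-numbered samples deviated together (correlations 0.342, 0.205, 0.242 and 0.185 for replicates 1 to 4, limit 0.1), and on that ground the numbers pair them, although no label names a shared plate or day. Separate cultures are not stated either, so p-values measure only how these samples vary, possibly for technical reasons. The fit reported here leaves the pairing by number out, and the replicate block takes it in. Over all genes, 1728 were called lower and 1325 higher without the block, against 2264 and 1983 with it. Replicate pairs differed beyond sampling noise. Symbols came from RefSeq and Ensembl. Full statistics were given by rule for mtch-1, every mtDNA member, the 4 called nuclear members with the lowest adjusted p in each direction, the most and least abundant, and gas-1 and nduf-2.2, whose comparison with each other is not reported here, while ndub-3 and gene values within modules were added after values were seen. Members and lists were chosen with earlier results of these data known.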

Additional observations from a re-analysis of the deposited data

Results flagged for a closer look

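In 86 groups of 4 samples checked, 2 held a sample far from the other 3, and chance alone flags about 1 in 20 such groups. For ndua-5, the level of 85.3 CPM in EV replicate 2 was far above that of the other EV samples, 76.8 to 77.3 CPM. For ndub-3, the level of 67.2 CPM in mtch-1(RNAi) replicate 1 was far below that of replicates 2 to 4, 83.0 to 84.7 CPM.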

How the results depend on the processing

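The 6 mtDNA calls and those of mtch-1, nduf-2.2 and nduv-2 held under every alternative run. The log2 change of the mtDNA to nuclear level was -0.65 with summed CPM, -0.73 with medians over members and -0.69 without the most abundant member of each genome. With 1 sample left out, the nuclear members called lower numbered 4 to 8. The N module had 0 to 1, the Q module 2 to 4, and the membrane arm and carriers 1 to 4. Fewer genes of the whole table were called lower in each of these fits too, against 1728 with all samples. Over the same settings complex III had 3 to 5 lower and 0 to 1 higher, complex IV 2 to 4 lower, mtDNA expression genes 0 to 1 lower, and the further complex I genes 0 to 1 higher. The replicate block gave 11 nuclear members lower and 1 N module gene lower, and 1 further complex I gene higher, as did the stricter count filter and total-count scaling. Total-count scaling gave 1 nuclear member lower and 3 higher, 1 Q module gene lower, and 0 membrane-arm genes lower and 2 higher. It also gave 2 complex III genes and 1 complex IV gene lower, 1 complex II gene higher, and 998 genes lower and 2043 higher in all. That scaling raised estimates across the table, with the median of all tested genes at 0.09 instead of 0.01. For example, nduv-2 went from 0.24 to 0.31 and ND1 from -0.90 to -0.83. Why the 2 scalings differ was not tested. Of called members none changed sign. Uncalled members near 0 did: C16A3.5, ndub-10 and ndub-6 stood at 0.00 with no count filter, 0.02 with the stricter one and 0.07 under total-count scaling, where ndua-12 (0.01), ndus-8 (0.03) and ndab-2 (0.02) were also above 0. With 1 sample left out, C16A3.5 ranged from -0.05 to 0.03, ndub-10 from -0.03 to 0.01 and ndub-6 from -0.04 to 0.03. The block changed no call of a member other than lpd-5 and ndab-1. Depth limits ND4L alone among the members.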
